A study of Homo sapiens with 6 samples.

Results

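The genes described here are 8 genes of cell-cell adhesion: the classical cadherin genes CDH1 (E-cadherin), CDH2 (N-cadherin), CDH3 (P-cadherin) and CDH4 (R-cadherin), the gene of the truncated cadherin CDH13 (T-cadherin), and the catenin genes CTNNB1 (β-catenin), CTNNA1 (α-catenin) and CTNND1 (p120-catenin). The rule names them and uses no measured value, although it was set with earlier results of these data known. They are 8 of the 23459 genes in the count table. Their transcripts were measured by 3′ mRNA-Seq in MCF10A cells, an established, untransformed human mammary epithelial line. Each group had been transfected with siRNA at 20 nM. One received a non-targeting control (siCtrl), and the other received siRNA that depletes YAP together with TAZ (siYAP/TAZ). The cells of both groups are labelled WT, and no agent other than the siRNA and its transfection reagent is given for them. The labels name 3 libraries in each group and do not say whether these came from separate cultures, so p-values measure the spread between these libraries. The comparison asks which of these transcripts differ in level once the Hippo pathway effectors YAP and TAZ, the latter encoded by WWTR1, are depleted.

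Classical cadherins are transmembrane proteins that bind cadherins on a neighboring cell through their extracellular repeats and hold catenins on their cytoplasmic tail. p120-catenin binds close to the membrane and slows the removal of cadherins from the surface, β-catenin binds the end of the tail, and α-catenin connects β-catenin to actin filaments. In the mammary gland E-cadherin marks luminal and P-cadherin basal epithelial cells, N-cadherin is typical of mesenchymal cells and neurons, and R-cadherin is best known from brain, kidney and muscle. T-cadherin is held in the membrane by a lipid anchor and has no tail for catenins. YAP and TAZ are coactivators of the TEAD transcription factors and are kept out of the nucleus in dense epithelia, where α-catenin and adherens junctions act upstream of them.

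Library totals ranged from 3175149 to 4317286 counts. The labels disagree for 2 libraries: siCtrl replicate 2 is titled siYAP/TAZ and siYAP/TAZ replicate 2 is titled as a control. The genotype entries of these libraries follow the titles. The description, which is also the column name, was used. Under it YAP1 had 189, 204 and 210.3 CPM (reads scaled to a common library size by the TMM method) after siCtrl, against 116, 118 and 112 CPM after siYAP/TAZ. WWTR1 had 109, 109 and 102 CPM against 70.5, 67.1 and 59.8 CPM, so both targets were lower in every library described as siYAP/TAZ. The library siCtrl replicate 2 stood apart: its rank correlation across genes was 0.946 and 0.959 with the other siCtrl libraries, which had 0.981 with each other. It is also 1 of the 2 libraries with disputed labels. Results that rest on it are given with and without it. In the comparison of siYAP/TAZ with siCtrl by edgeR's quasi-likelihood test, 152 of 12510 genes tested were lower (1.22%) and 93 were higher (0.743%) at an adjusted p (Benjamini-Hochberg) under 0.05. With the replicate number as a block these were 680 (5.44%) and 583 (4.66%), and without siCtrl replicate 2 they were 798 (6.22%) and 781 (6.08%) of 12836 genes. DESeq2, another count test, called 332 lower (2.65%) and 260 higher (2.08%).

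CDH4 fell to 18.2% of its siCtrl level, and it was the 1 gene of the 8 that passed the test. The other classical cadherins, CDH1, CDH2 and CDH3, did not pass, nor did CDH13 or any of the 3 catenins. All 8 members were tested, and each had more than 3 counts in all 6 libraries. Of the 8 members 1 was called lower and 0 were called higher, and at an unadjusted p under 0.05 the numbers were 2 lower and 0 higher, where 9.27% of all genes tested were lower and 8.40% were higher. The median log2 fold change was -0.04 over the 8 members and -0.00093 over all genes tested.

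**Figure D1:**
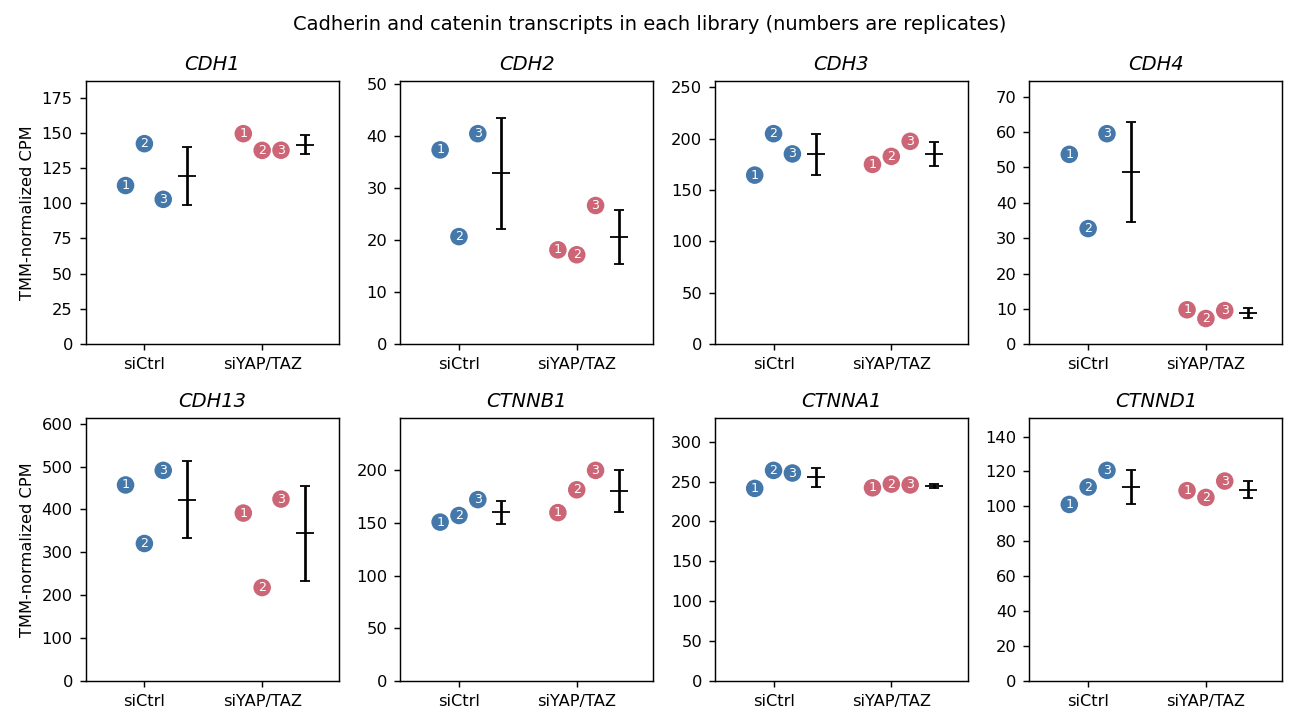
Level of each of the 8 genes in each library, in TMM-normalized CPM on linear axes that start at 0, with blue circles for siCtrl, red circles for siYAP/TAZ and the replicate number inside; black bars show the mean and SD of 3 libraries. The groups are apart for CDH4, where the siYAP/TAZ libraries sit between 7.27 and 9.75 CPM and the siCtrl libraries between 32.7 and 59.6 CPM, and they overlap for the other 7 genes.

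CDH4 (Entrez 1002) encodes R-cadherin and spans 688.4 kb on GRCh37, chr20:59827317-60515673, plus strand. The promoter table of RefSeq (GRCh38.p14) held 4 of the 8 genes, namely CDH4, CDH2, CTNNB1 and CTNNA1, with 9 windows in all. For CDH4 and CDH2, the 2 members with the smallest p-values, the 250 bases before each listed transcript start are given 5′ to 3′ on the strand of the gene. Capitals mark a match to one of 3 motifs searched on both strands: the TEAD motif GGAATG, the AP-1 motif TGANTCA, or the E-box CACCTG, the letters bound by the SNAI and ZEB repressors of E-cadherin. No window held more than 1 match, so no matches overlapped.
CDH4, chr20:61499171-61499420, plus strand: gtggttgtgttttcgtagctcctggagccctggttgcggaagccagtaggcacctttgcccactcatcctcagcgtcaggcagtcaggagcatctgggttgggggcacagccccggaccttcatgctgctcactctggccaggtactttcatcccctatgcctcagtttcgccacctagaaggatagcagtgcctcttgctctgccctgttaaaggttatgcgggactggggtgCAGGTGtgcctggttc
CDH4, chr20:61599511-61599760, plus strand: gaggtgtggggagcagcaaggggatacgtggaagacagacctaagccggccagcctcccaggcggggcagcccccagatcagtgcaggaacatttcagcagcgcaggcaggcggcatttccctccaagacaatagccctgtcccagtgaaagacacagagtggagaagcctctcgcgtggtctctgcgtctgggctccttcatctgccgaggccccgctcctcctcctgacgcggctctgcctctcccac
CDH2, chr18:28177131-28177380, minus strand: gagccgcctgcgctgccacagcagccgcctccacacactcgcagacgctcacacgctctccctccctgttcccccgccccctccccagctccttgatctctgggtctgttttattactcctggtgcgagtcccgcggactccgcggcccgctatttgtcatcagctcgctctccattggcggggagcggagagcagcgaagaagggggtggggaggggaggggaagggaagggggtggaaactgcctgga
CDH2, chr18:28036642-28036891, minus strand: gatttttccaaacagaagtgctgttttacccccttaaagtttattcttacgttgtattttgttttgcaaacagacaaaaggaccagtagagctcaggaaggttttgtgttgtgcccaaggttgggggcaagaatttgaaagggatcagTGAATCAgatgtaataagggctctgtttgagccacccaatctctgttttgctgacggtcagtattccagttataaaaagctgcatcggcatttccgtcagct

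The first CDH4 window held 1 E-box, read on the opposite strand as CAGGTG, close to its listed transcript start. The second held none of the 3 motifs. The first CDH2 window held none, and the second held 1 AP-1 motif. The windows of CTNNB1 and CTNNA1 held none. Over the 35116 windows of the same length in the table, 11.9% held the TEAD motif, 6.57% the AP-1 motif and 17.5% the E-box. A match is a description of letters and was not tested for binding, and these windows leave out distal sites. The windows and the gene spans are given on different genome builds. Whether either CDH4 window lies at the start of the CDH4 span, or at a transcript start inside it, was not tested. The motifs found or missing there therefore need not describe the main CDH4 promoter.

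The siCtrl libraries had 187, 106 and 237 CDH4 reads, and the siYAP/TAZ libraries had 43, 22 and 35. In CPM these were 53.7, 32.7 and 59.6 against 9.75, 7.27 and 9.52. Every siYAP/TAZ library was below every siCtrl library. Groups that did not overlap in this direction were found for 11.1% of all genes tested, and in the other direction for 11.0%. The means were 48.7 ± 14.1 CPM (SD, n = 3) and 8.85 ± 1.37 CPM (SD, n = 3). The log2 fold change was -2.45 ± 0.26 (SE), which is 5.45-fold lower with a 95% interval of 3.62- to 8.20-fold, and the adjusted p was 0.00454 by edgeR's quasi-likelihood test. CDH4 ranked 12 of 12510 genes by p.

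The fall of CDH4 did not rest on the library that stood apart. Without siCtrl replicate 2 its log2 fold change was -2.66 (edgeR, adjusted p = 0.000129), and with both disputed libraries left out it stayed past the threshold. Over the alternatives other than the groups of the titles it lay between -2.66 and -2.28 with adjusted p up to 0.0445. With the groups of the titles it was -1.24 (edgeR, adjusted p = 0.898), where the library with 32.7 CPM counts as depleted and the library with 7.27 CPM as control. Within the siCtrl group, replicate 2 was also the library with the least CDH4. In bulk RNA, fewer cells that express a gene and less RNA per cell cannot be told apart.

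CDH2 (Entrez 1000; GRCh37, chr18:25512843-25757910, minus strand) encodes N-cadherin, the cadherin that epithelial cells often gain in epithelial-mesenchymal transition. It had 37.3, 20.7 and 40.5 CPM after siCtrl, against 18.1, 17.2 and 26.7 CPM after siYAP/TAZ. Replicates 1 and 3 of siCtrl were above all siYAP/TAZ libraries, whereas siCtrl replicate 2 was below siYAP/TAZ replicate 3. The means were 32.8 ± 10.6 and 20.7 ± 5.21 CPM (SD, n = 3 each), and the log2 fold change was -0.67 ± 0.28 (SE) with an adjusted p of 0.256 by edgeR. Its unadjusted p was 0.0386. Without siCtrl replicate 2 the log2 fold change was -0.91 and passed the threshold (edgeR, adjusted p = 0.0212), and with the replicate block it was -0.66 (adjusted p = 0.0577). The call for CDH2 thus depended on 1 library.

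CDH1 (Entrez 999; GRCh37, chr16:68771195-68869440, plus strand) encodes E-cadherin, the main cadherin of epithelial adherens junctions. It had 113, 142 and 103 CPM after siCtrl, against 149, 138 and 138 CPM after siYAP/TAZ. The siYAP/TAZ libraries were close to each other, and siCtrl replicate 2 fell among them, above 2 of the 3. The means were 119 ± 20.6 and 141 ± 6.81 CPM (SD, n = 3 each). The log2 fold change was 0.25 ± 0.15 (SE), with a 95% interval of -0.08 to 0.58 and an adjusted p of 0.415 by edgeR. Without siCtrl replicate 2 it was 0.40 (adjusted p = 0.0651), which also did not pass.

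CDH3 (Entrez 1001; GRCh37, chr16:68670092-68761371, plus strand) encodes P-cadherin and ends 9.82 kb before CDH1 begins on the same strand. It had 165, 205 and 185 CPM after siCtrl, against 175, 183 and 197 CPM after siYAP/TAZ. The siYAP/TAZ values all lay within the range of the controls. The log2 fold change was 0.0015 ± 0.13 (SE, n = 3 each), and its 95% interval of -0.29 to 0.30 leaves room for a change of up to about 1.23-fold in either direction. No other counted gene overlapped the span of CDH1, CDH2, CDH3 or CDH4.

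CDH13 (Entrez 1012; GRCh37, chr16:82660570-83834245, plus strand) encodes T-cadherin, a receptor for adiponectin and low-density lipoproteins. It had 457, 321 and 491 CPM after siCtrl, against 392, 218 and 424 CPM after siYAP/TAZ. Replicate 2 was the lowest library of both groups, and the spread within each group was larger than the difference between their means, 423 ± 90.3 and 345 ± 111 CPM (SD, n = 3 each). The log2 fold change was -0.30 ± 0.25 (SE; edgeR, adjusted p = 0.591), and with the replicate block, which compares libraries of the same number, it was -0.33 (adjusted p = 0.101). HSBP1 lies partly inside the CDH13 span on the same strand and had 504, 444 and 657 counts after siCtrl, against 622, 380 and 468 after siYAP/TAZ. The methods given for the RNA-Seq of the study name countOverlaps, without saying whether it served these 3′ libraries. It counts a read for each gene that it overlaps, so reads in the shared stretch could enter both genes.

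**Figure D2:**
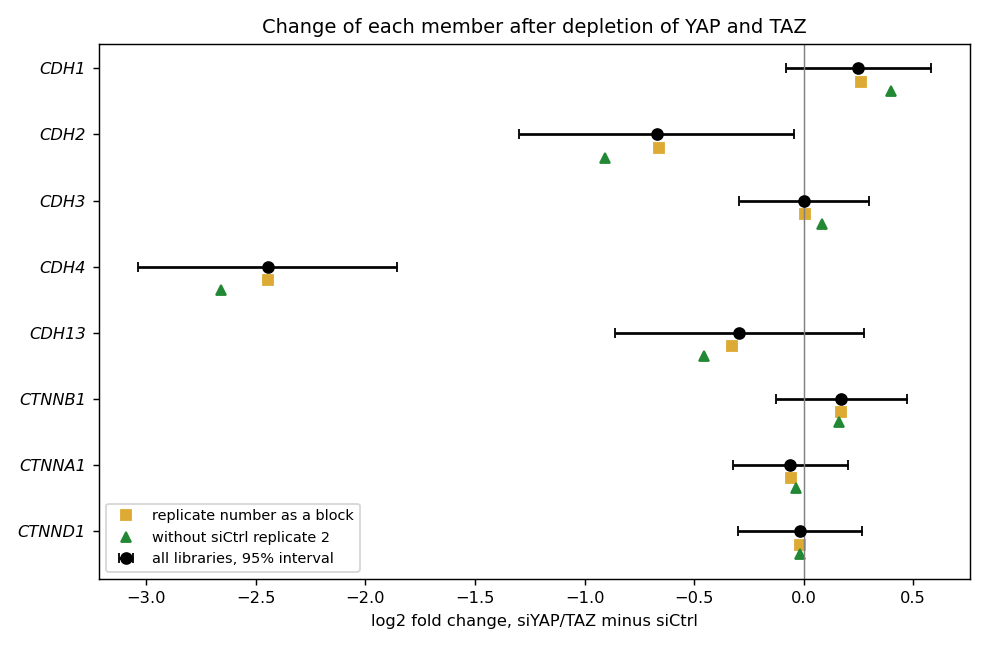
Log2 fold change of each of the 8 genes, siYAP/TAZ minus siCtrl, with black points and 95% intervals for the fit of all libraries, yellow squares for the fit with the replicate number as a block and green triangles for the fit without siCtrl replicate 2. The interval of CDH4, -3.04 to -1.86, lies far from 0, the interval of CDH2 ends at -0.04, and those of the other 6 genes include 0.

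None of the 3 catenins passed the test. CTNNB1 (Entrez 1499; GRCh37, chr3:41236232-41301587, plus strand), whose protein is also the coactivator of the Wnt pathway, had 151, 157 and 172 CPM after siCtrl, against 159.8, 181 and 199.9 CPM after siYAP/TAZ. Of the siYAP/TAZ libraries 2 were above all controls and 1 was not. Its log2 fold change was 0.17 ± 0.13 (SE, n = 3 each; edgeR, adjusted p = 0.544), with a 95% interval of -0.13 to 0.47. ULK4, which overlaps it on the opposite strand, had 63 to 157 counts per library.

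CTNNA1 (Entrez 1495; GRCh37, chr5:137946656-138270723, plus strand) had 242, 264 and 261 CPM after siCtrl, against 242, 247 and 246 CPM after siYAP/TAZ. The groups overlapped, and the siYAP/TAZ libraries differed from each other by an SD of only 2.43 CPM. The log2 fold change was -0.06 ± 0.12 (SE, n = 3 each; edgeR, adjusted p = 0.833), with a 95% interval of -0.32 to 0.20. LRRTM2, inside an intron of α-catenin on the opposite strand, had 13 to 41 counts.

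CTNND1 (Entrez 1500; GRCh37, chr11:57520715-57587018, plus strand) had 101, 111 and 121 CPM after siCtrl, against 109, 105 and 114.5 CPM after siYAP/TAZ. All siYAP/TAZ values lay within the control range. The log2 fold change was -0.02 ± 0.13 (SE, n = 3 each; edgeR, adjusted p = 0.956), with a 95% interval of -0.30 to 0.26. These counts are uncertain, since the table also lists the read-through gene TMX2-CTNND1 with 675, 578 and 806 counts after siCtrl, against 885, 572 and 722 after siYAP/TAZ, more in each library than CTNND1 itself. The read-through gene had a log2 fold change of 0.03 ± 0.12 (SE; edgeR, adjusted p = 0.928). TMX2, the other gene in its name, had 229, 142 and 241 counts after siCtrl, against 306, 169 and 209 after siYAP/TAZ. If a read was counted for each gene it overlaps, reads of TMX2 and CTNND1 would also enter the read-through gene. Its counts and its change may therefore not be independent of those of CTNND1, which was not tested.

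The make-up of the cadherin reads was compared within each library, which needs no scaling between libraries. CDH4 made up 6.51%, 4.54% and 6.77% of the reads of the 5 cadherins in the siCtrl libraries and 1.31%, 1.29% and 1.20% in the siYAP/TAZ libraries. The widest 95% Wilson interval of these shares in a siYAP/TAZ library was 0.855% to 1.95%, and the lowest lower bound in a siCtrl library was 3.76%. The intervals cover counting error within a library only, not the spread between libraries. The reads carry no molecular identifiers, so amplified copies could make the intervals too narrow. The shares did not overlap between the groups, and the mean fell from 5.94% ± 1.22 to 1.27% ± 0.0611 (SD, n = 3 each). The two-sided exact permutation p was 0.1, the smallest that 3 against 3 libraries allow.

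CDH1 made up 13.6%, 19.7% and 11.7% of the cadherin reads in the siCtrl libraries and 20.1%, 24.4% and 17.3% in the siYAP/TAZ libraries, and these ranges overlap (unpaired exact permutation p = 0.2). The share of CDH3 was 23.1% ± 4.60 and 26.9% ± 4.85 (SD, n = 3 each; exact permutation p = 0.5), and that of CDH2 was 4.0% ± 0.980 and 2.95% ± 0.466 (exact permutation p = 0.3). CDH13 took 51.9% ± 6.46 and 48.2% ± 8.25 of the reads (exact permutation p = 0.5). Between libraries of the same replicate number, the share of CDH1 was higher after siYAP/TAZ by 6.44, 4.72 and 5.61 percentage points and that of CDH3 by 3.58, 4.08 and 3.76 points. The share of CDH13 differed by -2.74, -5.74 and -2.54 points and that of CDH4 by -5.20, -3.24 and -5.58 points, whereas that of CDH2 differed by -2.09, 0.188 and -1.25 points. The exact paired permutation p (two-sided, sign flips within replicate numbers) was 0.25 for CDH1, CDH3, CDH4 and CDH13, the smallest that 3 pairs allow, and 0.5 for CDH2. The shares are of reads from a 3′ protocol and are not divided by length. Whether reads in introns were counted is not given, and the gene spans run from 91.3 kb for CDH3 to 1173.7 kb for CDH13. The shares of different genes may therefore not reflect transcript numbers. They sum to the whole, so a lower share of 1 gene raises the others.

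**Figure D3:**
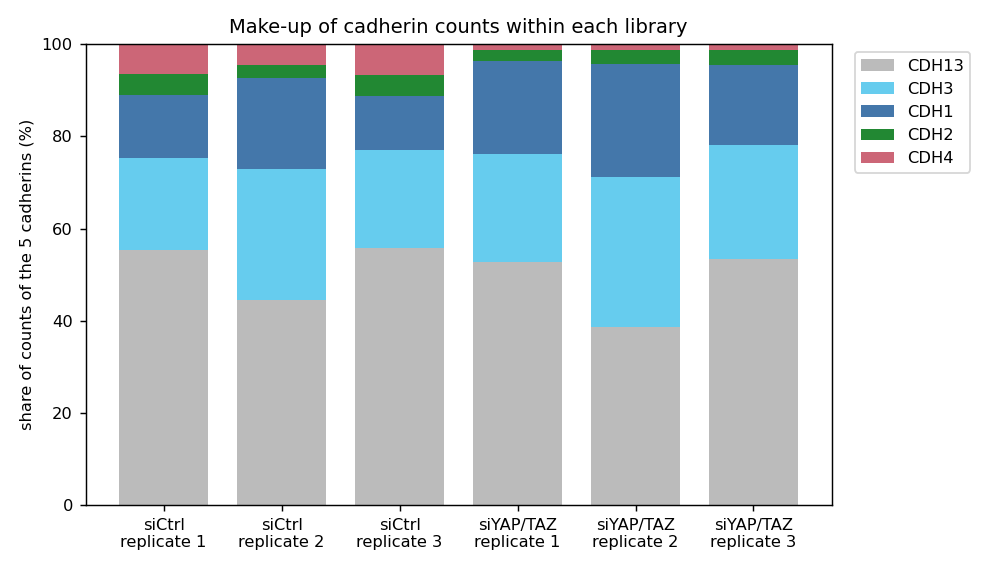
Share of each cadherin in the summed reads of the 5 cadherins, in percent, as stacked bars for each of the 6 libraries, with CDH13 at the bottom and CDH4 at the top. The CDH4 segment is 4.54% to 6.77% in the siCtrl libraries and 1.20% to 1.31% in the siYAP/TAZ libraries, and replicate 2 has the smallest CDH13 segment of both groups.

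The ratio of reads of the 4 classical cadherins to those of the 3 catenins was lower in every siYAP/TAZ library. On the log2 scale it was -0.42, -0.41 and -0.51 in the siCtrl libraries and -0.54, -0.63 and -0.59 in the siYAP/TAZ libraries, a difference of -0.14 (exact permutation p = 0.1, the smallest possible). This ratio includes CDH4, whose summed counts were 530 after siCtrl and 100 after siYAP/TAZ. Those of CDH2 were 358 and 230, of CDH1 1262 and 1581, and of CDH3 1974 and 2051. The lower ratio is thus not separate from the fall of CDH4 and does not show a fall of the classical cadherins as a group. A ratio without CDH4 was not computed. The log2 ratio of CDH1 to CDH3 was -0.55, -0.53 and -0.85 in the siCtrl and -0.23, -0.41 and -0.52 in the siYAP/TAZ libraries. These groups did not overlap either, but siCtrl replicate 2 and siYAP/TAZ replicate 3 were nearly equal, and the difference was 0.25 (exact permutation p = 0.1). With 3 libraries in each group neither ratio could pass a threshold of 0.05.

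The genes whose levels followed each member most closely over the 6 libraries were listed from 8913 genes with a mean of at least 50 counts. For CDH4 they included PROSER2 (Pearson r = 0.996 of log2 CPM) and DNAJC14 (r = 0.994). PROSER2 had 107 CPM after siCtrl and 34.4 CPM after siYAP/TAZ (log2 fold change -1.63; edgeR, adjusted p = 0.00315), and it stayed past the threshold when any 1 library was left out. For CDH2 they were MYOT (r = 0.999), PLEK2 (r = 0.995) and HNRNPA0 (r = 0.994), and for CDH1 they were OCIAD1 (r = 0.998), LINC01278 (r = 0.991) and CADPS2 (r = 0.988). For CDH3 they were SMIM3, SUN2 and IL10RB, for CDH13 TSPAN6, PSMD13 and MED6, for CTNNB1 BRK1, KREMEN1 and RIGI, for CTNNA1 they included ST14 and MAGI1, and for CTNND1 they included LTBP1 and ZNF765. CDH1 and CDH2 had r = -0.918 with each other, and CDH4 had r = 0.798 with CDH2 and -0.790 with CDH1. These values are descriptions over 6 libraries that share a treatment difference and the library that stood apart.

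Among the other genes of the cadherin superfamily, which include protocadherins, FAT and CELSR cadherins and calsyntenins, 18 of 47 had enough counts to be tested, and 0 passed by edgeR in either direction, while DESeq2 called 1, PCDH7, as lower. At an unadjusted p under 0.05 by edgeR, 3 were lower and 4 higher, beside 9.27% and 8.40% of all genes tested. The median log2 fold change of the 18 was 0.14. Of the untested genes, 15 had at most 3 counts in every library, 3 of them at 0 throughout. CDH12, a type II cadherin known from the brain, had the most reads of the list, with 159.6 ± 16.7 CPM after siCtrl, against 121 ± 13.9 CPM after siYAP/TAZ (SD, n = 3 each; edgeR, adjusted p = 0.186). CDH20, another type II cadherin, had 72.1 ± 7.06 and 84.1 ± 12.4 CPM (edgeR, adjusted p = 0.4997). With the replicate block PCDH7 was lower and FAT2 and CLSTN1 were higher past the threshold, and without siCtrl replicate 2 PCDH7 and FAT1 were lower. These 4 genes were chosen after their values were seen. PCDH7 had 25.4 and 12.4 CPM in the fit of all libraries (log2 fold change -1.03; edgeR, adjusted p = 0.0566).

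Of 7 other catenin family genes, 6 were tested and 1 passed. CTNNAL1, which encodes the α-catenin-related protein α-catulin, had 106, 90.7 and 107 CPM after siCtrl, against 51.2, 52.9 and 43.5 CPM after siYAP/TAZ. Each siYAP/TAZ library was below each control, as for 11.1% of all genes tested. The log2 fold change of CTNNAL1 was -1.04 ± 0.14 (SE; edgeR, adjusted p = 0.0108). It did not pass without siCtrl replicate 3 or without siYAP/TAZ replicate 3, where the adjusted p reached 0.0899. With the replicate block and also without siCtrl replicate 2, PKP4, which encodes a p120-related plakophilin, passed as well, with 168 and 125 CPM (edgeR with the block, adjusted p = 0.0379). JUP, which encodes plakoglobin, the closest relative of β-catenin, had 905 ± 214 and 941 ± 78.7 CPM (SD, n = 3 each; edgeR, adjusted p = 0.908). PKP4 and JUP were chosen after their values were seen.

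Of 30 genes whose products bind cadherin-catenin complexes or connect them to actin and microtubules, all were tested, 5 passed as lower and 0 as higher, beside 1.22% and 0.743% of all genes. Their median log2 fold change was -0.22, and 21 of the 30 were negative. The list was chosen with earlier results of these data known, so the 5 calls beside these shares are a description and not a test of enrichment. AJUBA, a LIM protein recruited to junctions through α-catenin that binds the LATS kinases, had 39.6, 42.9 and 48.2 CPM after siCtrl, against 19.3, 18.5 and 21.8 CPM after siYAP/TAZ, a log2 fold change of -1.13 ± 0.17 (SE; edgeR, adjusted p = 0.0138). The siYAP/TAZ libraries were all below the siCtrl libraries for AJUBA, and this held for the other 4 genes too. It also held for 11 of the 30 in all and for 11.1% of all genes tested. For genes that passed the test it adds little. SHROOM3, which directs apical constriction, fell by 0.93 on the log2 scale (edgeR, adjusted p = 0.0168). LIMA1, which encodes the actin-bundling protein EPLIN that links α-catenin to filaments, fell by 0.73 (adjusted p = 0.0205). KIFC3, a minus-end motor on microtubules anchored at junctions, fell by 1.05 (adjusted p = 0.0311), and ACTN1, the actin crosslinker α-actinin, fell by 0.81 (adjusted p = 0.0354). Without siCtrl replicate 2 the count was 5, and with the replicate block it was 6. Leaving out siCtrl replicate 3 gave a count of 0, with 16 of all genes called. Leaving out either replicate 2 or replicate 3 of siYAP/TAZ also gave 0, with 71 and 18 of all genes called. Leaving out siYAP/TAZ replicate 1 gave 1, which was AJUBA, with 172 of all genes, and leaving out siCtrl replicate 1 gave 3, with 92.

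**Figure D4:**
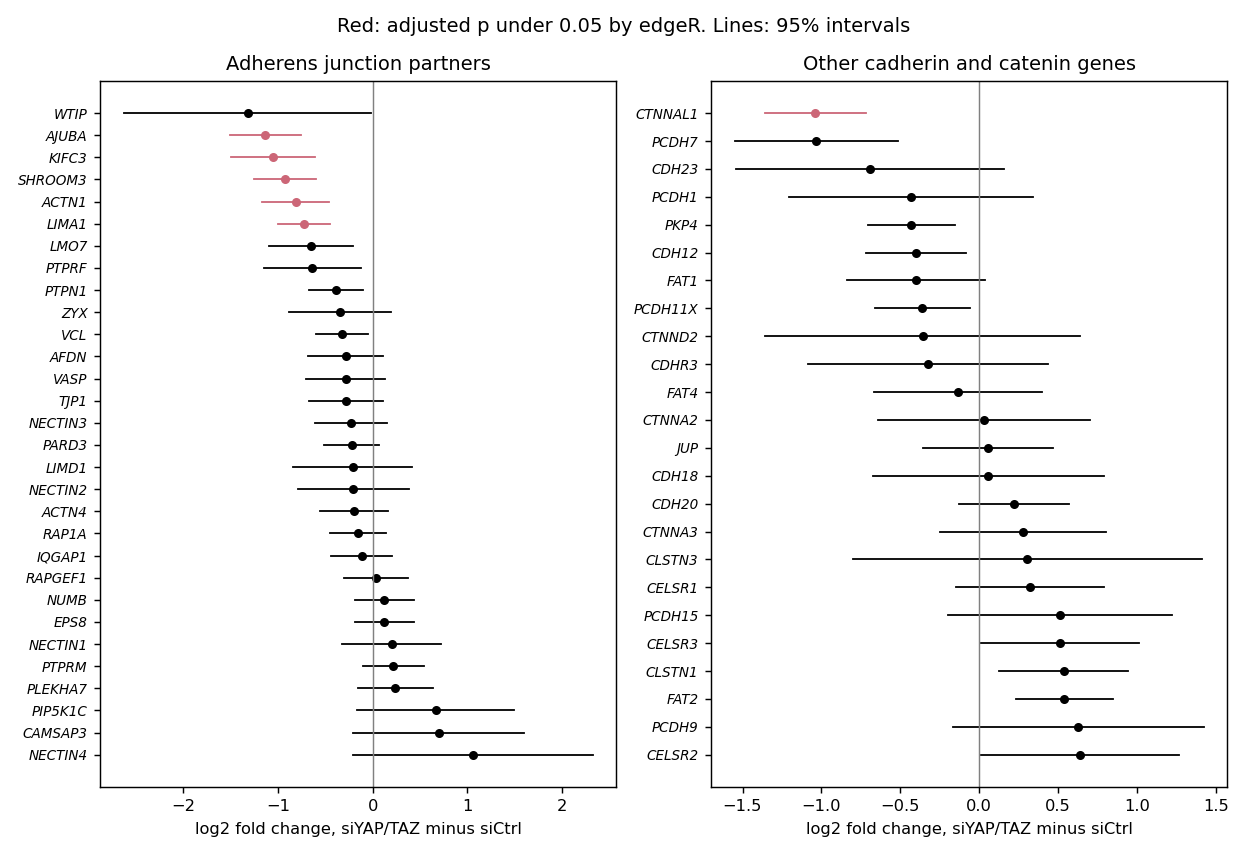
Log2 fold change, siYAP/TAZ minus siCtrl, with 95% intervals as lines, for 30 adherens junction partners on the left and for the tested genes among the other cadherins and catenins on the right, with genes at an adjusted p under 0.05 by edgeR in red. The red genes are AJUBA, KIFC3, SHROOM3, ACTN1 and LIMA1 on the left and CTNNAL1 on the right, all below 0.

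Transcription factors that repress or activate cadherin genes gave 0 calls by edgeR and 0 by DESeq2 among 15 tested of 18, and 12 of the 15 were positive, with 0.40 as the median log2 fold change. At an unadjusted p under 0.05, 0 were lower and 4 higher by edgeR, beside 9.27% and 8.40% of all genes tested. TCF4 (E2-2), an E-box binding repressor of CDH1, had 74.7 ± 11.0 CPM after siCtrl and 77.0 ± 3.64 CPM after siYAP/TAZ, and TCF3 (E2A) had 68.0 ± 10.2 and 65.0 ± 6.64 CPM (SD, n = 3 each). With the replicate block ZEB2, ELF3 and TP63 passed as higher, and without siCtrl replicate 2 TWIST1 and ELF3 did. These genes were named after their values were seen. ZEB2, which encodes a repressor of E-cadherin, had 5.46, 6.79 and 14.3 CPM after siCtrl, against 24.0, 8.26 and 34.0 CPM after siYAP/TAZ, and these values overlap.

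Genes of cadherin turnover and cleavage, such as ubiquitin ligases, endocytic factors and γ-secretase subunits, gave 0 calls by edgeR and 0 by DESeq2 among 12 tested of 13. Their median log2 fold change was 0.04. At an unadjusted p under 0.05 by edgeR, 1 was lower and 1 higher, beside 9.27% and 8.40% of all genes tested. The 1 higher gene was NCSTN, the γ-secretase subunit nicastrin, with 25.9 CPM after siCtrl and 39.2 CPM after siYAP/TAZ. The lower one was ARF6, an endocytic GTPase, with 135 and 108 CPM, and both were named after their values were seen. NCSTN passed with the replicate block (adjusted p = 0.0435) and without siCtrl replicate 2 (adjusted p = 0.0221). APH1A, another γ-secretase subunit, had 412 ± 34.3 and 424 ± 47.3 CPM (SD, n = 3 each), and MIB1, a ubiquitin ligase, had 195 ± 34.9 and 190.5 ± 29.1 CPM. Genes of β-catenin degradation and transcription gave 0 calls by edgeR and 0 by DESeq2 among 15 tested of 16, with a median of -0.09. Of these 0 were lower and 1 higher at an unadjusted p under 0.05 by edgeR, beside the same shares of all genes. The higher gene was TCF7L2, which passed without siCtrl replicate 2 (adjusted p = 0.0459). CSNK1A1, the kinase that primes β-catenin for degradation, had 395 ± 79.4 and 358 ± 23.9 CPM, and TCF7L2, a DNA-binding partner of β-catenin, had 109 ± 17.3 and 137 ± 8.14 CPM (SD, n = 3 each).

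Of 10 genes known as targets of β-catenin, 4 were tested and 0 passed by edgeR and 1, DKK1, by DESeq2. At an unadjusted p under 0.05 by edgeR, 2 were lower and 0 higher, beside 9.27% and 8.40% of all genes tested. The median over those 4 was -0.43 (log2 fold change). ZNRF3 and RNF43, ubiquitin ligases that remove Wnt receptors, had 37.1 ± 7.19 and 32.6 ± 4.75 CPM and 24.5 ± 4.59 and 15.5 ± 2.51 CPM (SD, n = 3 each). DKK1, a secreted Wnt antagonist chosen after its values were seen, had 21.8, 6.48 and 22.1 CPM after siCtrl, against 6.35, 1.32 and 3.26 CPM after siYAP/TAZ. It did not pass in the fit of all libraries (log2 fold change -2.14; edgeR, adjusted p = 0.0867) but passed with the replicate block (adjusted p = 0.00169) and without siCtrl replicate 2 (adjusted p = 0.00405). RNF43 also passed without siCtrl replicate 2 (adjusted p = 0.0368).

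Markers of the labelled cell type were present. The 12 markers listed for basal mammary epithelium, among which KRT8, KRT18 and EPCAM are more typical of luminal cells, were all tested. Their summed level was 3639 to 4303 CPM after siCtrl and 2537 to 2974 CPM after siYAP/TAZ, with 0 called by edgeR and 3 called lower by DESeq2. At an unadjusted p under 0.05 by edgeR, 3 were lower and 1 higher, beside 9.27% and 8.40% of all genes tested. With the replicate block 5 were lower and 1 higher, beside 5.44% and 4.66%. The higher gene was TP63 in both, named after its values were seen, with 49.0 CPM after siCtrl and 73.7 CPM after siYAP/TAZ. KRT6A and KRT5, the keratins with the most reads of the list, had 1185 ± 167 and 714 ± 119 CPM and 912 ± 74.2 and 661 ± 47.5 CPM (SD, n = 3 each) after siCtrl and siYAP/TAZ. The summed level of the 12 was lower in every siYAP/TAZ library, as CDH4 was, and its part in the fall of CDH4 was not tested. Not all of the list fell, since 9 of the 12 log2 fold changes were negative and 3 were positive. The 9 fibroblast markers summed to 501 to 625 CPM and 413 to 674 CPM, nearly all of it from VIM (407 and 366 CPM) and PDGFRA (161 and 167 CPM), and COL1A2, COL3A1 and THY1 were at 0 in all libraries. The 6 endothelial markers summed to 5.17 to 6.79 CPM and 7.93 to 15.2 CPM, with CLDN5 at 0. Of these PECAM1 had 1.72, 1.23 and 1.01 CPM after siCtrl, against 3.17, 9.59 and 4.90 CPM after siYAP/TAZ, and it passed with the replicate block (edgeR, adjusted p = 0.0245) and by DESeq2 but not in the fit of all libraries (adjusted p = 0.0785). TEK had 2.83 and 2.80 CPM. The 5 blood cell markers summed to 1.44 to 4.94 CPM and 1.36 to 3.97 CPM, with HBB at 0 and PTPRC at 1.47 and 1.30 CPM and CD68 at 1.24 and 0.939 CPM after siCtrl and siYAP/TAZ.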

How the data were processed

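The authors deposited raw counts per Entrez gene for 6 libraries made with the QuantSeq FWD kit. The submitters' processing notes name cutadapt 4.2, Bowtie2 2.3.5.1 and hg19. The study's methods, for RNA-Seq in general, name the same tools and build with another Bowtie2 version, and countOverlaps in R for counting. The gene annotation, the use of strand and whether introns were counted are not given in the sources used here. Of 23459 IDs, 23308 (99.7% of counts) matched a RefSeq symbol. Coordinates are from GENCODE lifted to GRCh37.

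Groups and replicate numbers came from the description field. Counts were tested with edgeR 4.0.16 (R 4.3.3; quasi-likelihood, default low-count filter, TMM, Benjamini-Hochberg over 12510 genes), and the code was tested on simulated data. DESeq2 1.42.0, other scalings and filters, a replicate block and libraries left out were alternatives, 14 in all. A count of 0 allows up to 3 counts, or 0.680 to 0.992 CPM. No libraries of the same group were repeats of each other (chi-square per degree of freedom 5.73 to 18.6). Libraries of different groups were not compared in this way.

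For each replicate number, the siCtrl and siYAP/TAZ libraries deviated from their group means in a correlated way over all genes (r = 0.416, 0.345 and 0.129). The numbers, from the description field, were therefore taken to pair the libraries in the blocked fit and the paired test of shares, while the main fit and test of shares had no block. The paired test of shares was added after seeing the data. The members and gene lists were chosen with earlier results of these data known. The text names the members, each list's genes past the threshold or else its 2 of highest mean CPM, the 3 genes most like each member, and genes marked as chosen later. A few genes that this rule picks are not reported here.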

Additional observations from a re-analysis of the deposited data

How the results depend on the processing

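CDH4 was past the threshold in 13 of 14 alternatives, and the other members kept their side of it except CDH2 without siCtrl replicate 2. The number of genes past the threshold was 245 with all libraries, 592 with DESeq2, 556 with no low-count filter, 1263 with the replicate block, 1183 without both disputed libraries, 0 with the groups of the titles, and 16 to 1579 with 1 library left out. With the groups of the titles 0 members and 0 adherens junction partners passed, and with 1 library left out 1 to 2 members and 0 to 5 partners did. Other cadherins had 1 call with DESeq2, with no filter and without both disputed libraries, 3 with the replicate block, and 0 to 2 with 1 library left out. The block changed the call of 0 members and otherwise only the counts of the lists given above. CDH3, near 0, turned to -0.015 with library size alone and -0.0019 with no filter and ranged from -0.076 to 0.083 with 1 library left out. With the groups of the titles CTNNA1 turned to 0.0055 and CTNND1 to 0.033. CTNND1 also turned to 0.014 without both disputed libraries, and it ranged from -0.081 to 0.046 with 1 library left out. The share of CDH13 differed by 0.152 percentage points with the groups of the titles and by -7.40 to 1.08 with 1 library left out, and the log2 ratio of cadherins to catenins by 0.0079 with the groups of the titles. The causes were not tested. At these depths CDH2 and CDH4 had 52 to 161 and 22 to 237 counts per library, and 3 libraries per group limit every interval.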
